A study of Schizosaccharomyces pombe with 4 samples.

Results

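The bins described here are stretches of 1 kb of the fission yeast genome (Schizosaccharomyces pombe) that carried chromatin immunoprecipitation (ChIP) signal of the recombination protein Rad52 in cells lacking both Rif1 and Rad3, and that stood near the array median in cells lacking Rif1 alone. They were chosen by their values on the same 4 tiling arrays. A bin was kept where its mean log2 ChIP over input was 0.7 or more on both rif1Δ rad3Δ arrays and 0.2 or less on both rif1Δ arrays, with each array centred on the median of its nuclear probes, so that 0 is the typical probe. On a linear scale these limits are 1.62-fold and 1.15-fold. The rule reached 9983 of the 12050 bins with 2 or more probes. It covered chromosome I below 3703000, chromosome II and chromosome III below 2150187, without the bins of the deleted genes rif1 and rad3. It kept 194 bins, or 1.94% of those it could take. Because the values of all 4 arrays chose the bins, their difference between the strains is given as a description, with no test.

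Rad52 gathers on DNA that has been broken or left single-stranded and helps recombination to begin there, so that its ChIP signal marks places where recombination proteins collect. Rif1 holds back the firing of replication origins by bringing a protein phosphatase to them. Rad3, the fission yeast counterpart of ATR, is the kinase at the head of the replication checkpoint. When forks stall it acts through the kinase Cds1 to keep forks intact and to stop further origins from firing. Origins of this yeast have no fixed consensus sequence. They lie mostly in A+T-rich DNA between genes, where the origin recognition complex binds runs of A or T.

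Both strains carried cdc25-22, a temperature-sensitive allele of the phosphatase that starts mitosis, and both lacked rif1. One group of 2 arrays came from cdc25-22 rif1Δ cells and the other group of 2 from cdc25-22 rif1Δ rad3Δ cells. The cultures were held at 36.5 °C for 4 h, shifted to 25 °C, and given 6 mM hydroxyurea, which starves replication forks of nucleotides, after the release. A strain with Rif1 was not analysed here, nor was a ChIP without Rad52, so a level of 0 is the array median and not a measured absence of the protein. The labels do not say whether replicates were separate cultures.

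On every array the ChIP DNA was in the Cy3 channel and its input in the Cy5 channel, per the labels, so both strains had the same dye assignment. Whether a dye effect was equal on all arrays was not tested. Probes in rif1 lay at 3.48% of the array median or less in both channels of all arrays, and probes in rad3 at 6.1% or less on the rif1Δ rad3Δ arrays, against 63.2% to 79.6% on the rif1Δ arrays. The input of the rif1Δ rad3Δ arrays is labelled as cdc25-22 without either deletion, and the missing rif1 and rad3 signal in that channel goes against this label. Replicate 1 of both strains was hybridised on one slide. Replicate 2 of rif1Δ rad3Δ stood apart in a derivative log ratio spread, the noise between neighbouring probes, of 0.452, with 0.311 to 0.322 on the other arrays, and its scan, unlike the other 3, used a ChIP protocol of the reading software.

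In base content and position between genes the chosen bins were shifted from all bins, with much overlap. The sequences under some of the strongest bins are therefore shown first. Each is 300 bases of the reference genome (RefSeq, assembly ASM294v3) centred on the probe of the bin with the highest rif1Δ rad3Δ mean. Capitals mark runs of 5 or more A or 5 or more T. The first 2 come from regions among the 4 with the widest separation of the strains. Their windows hold no untranslated or coding base of a protein-coding gene, but both overlap annotated non-coding RNA genes. The mre11–fep1 and yea4–mas5 windows come from the leading bins that overlap an A+T-rich island, which the printed 300 bases need not cover. The are1 window, which is coding throughout, is shown as a contrast.
SPBC18H10.18C–vps38 (chrII:1804623-1804922, + strand): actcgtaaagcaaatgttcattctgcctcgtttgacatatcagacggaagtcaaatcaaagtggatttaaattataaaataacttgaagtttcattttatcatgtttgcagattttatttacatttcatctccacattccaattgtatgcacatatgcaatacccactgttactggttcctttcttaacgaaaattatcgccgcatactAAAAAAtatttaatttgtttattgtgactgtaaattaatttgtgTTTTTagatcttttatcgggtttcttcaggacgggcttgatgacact
tco89–urk1 (chrIII:1555511-1555810, + strand): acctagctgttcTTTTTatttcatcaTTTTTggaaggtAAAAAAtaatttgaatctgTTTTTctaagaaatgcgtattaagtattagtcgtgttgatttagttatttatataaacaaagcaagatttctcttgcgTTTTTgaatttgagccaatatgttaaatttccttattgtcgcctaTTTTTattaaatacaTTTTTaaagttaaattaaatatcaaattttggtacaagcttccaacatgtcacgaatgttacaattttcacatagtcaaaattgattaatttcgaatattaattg
mre11–fep1 (chrI:440446-440745, + strand): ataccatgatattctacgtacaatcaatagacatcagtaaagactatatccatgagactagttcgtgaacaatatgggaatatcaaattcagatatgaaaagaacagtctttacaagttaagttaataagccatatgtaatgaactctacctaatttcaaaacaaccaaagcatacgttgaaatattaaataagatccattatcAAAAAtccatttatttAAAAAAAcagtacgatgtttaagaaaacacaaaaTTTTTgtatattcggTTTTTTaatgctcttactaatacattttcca
yea4–mas5 (chrII:1080647-1080946, + strand): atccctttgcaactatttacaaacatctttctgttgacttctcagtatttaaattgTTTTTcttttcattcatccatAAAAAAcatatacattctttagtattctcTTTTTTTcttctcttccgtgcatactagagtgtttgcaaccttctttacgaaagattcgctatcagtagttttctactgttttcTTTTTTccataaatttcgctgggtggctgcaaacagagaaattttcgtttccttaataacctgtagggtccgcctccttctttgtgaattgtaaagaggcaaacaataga
are1 (chrI:2305456-2305755, + strand): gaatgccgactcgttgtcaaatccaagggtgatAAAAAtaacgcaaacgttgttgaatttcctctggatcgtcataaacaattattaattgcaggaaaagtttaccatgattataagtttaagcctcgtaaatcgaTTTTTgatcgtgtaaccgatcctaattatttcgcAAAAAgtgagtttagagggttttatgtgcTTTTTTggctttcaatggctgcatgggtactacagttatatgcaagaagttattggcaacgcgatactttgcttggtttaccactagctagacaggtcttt

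These windows differed in base content. A+T made up 68.3% of the SPBC18H10.18C–vps38 window, 75.3% of that at tco89–urk1, 73.0% at mre11–fep1, 66.3% at yea4–mas5 and 63.0% in are1. The tco89–urk1 window held 7 capitalised runs, the vps38 window 2, and the other 3 windows 4 each. Over all 194 bins, the window at the highest probe had a median A+T content of 68.7%, and over all 9983 bins windows placed by the same rule had 64.7%. A run of 8 or more A, or 8 or more T, was found in 38.1% of the windows of the chosen bins and in 18.5% of all windows, and one of 10 or more in 14.9% and 5.7%. Runs of 5 or more were nearly universal, in 95.4% and 89.2%. A run of A on one strand is a run of T on the other, so both strands were covered. Such a match is a feature of the sequence and not a mapped binding site.

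Across the 194 bins, the log2 ChIP over input on the rif1Δ arrays had medians of -0.004 (range -0.81 to 0.20) and -0.012 (-0.54 to 0.20), close to the median of 0 that the centring sets for probes. On the rif1Δ rad3Δ arrays the medians were 0.96 (0.70 to 2.03) and 0.94 (0.70 to 1.71). In 106 bins (54.6%) the rif1Δ mean was below 0, as it was in 53.4% of all bins. Both rif1Δ rad3Δ arrays reached 1 or more in 50 bins (25.8%), and in 2.05% of all bins. The difference of the strain means had a median of 1.001 and ranged from 0.64 to 1.77. It was 0.98 between the 2 replicate 1 arrays, which shared a slide, and 1.01 between the 2 replicate 2 arrays. The 2 arrays of a strain differed in these bins by a median of 0.12 in rif1Δ and 0.13 in rif1Δ rad3Δ. Over all bins these medians were 0.17 and 0.18. The rule set its limits on both arrays of a strain, which draws them together, so nothing is read from their closeness.

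**Figure D1:**
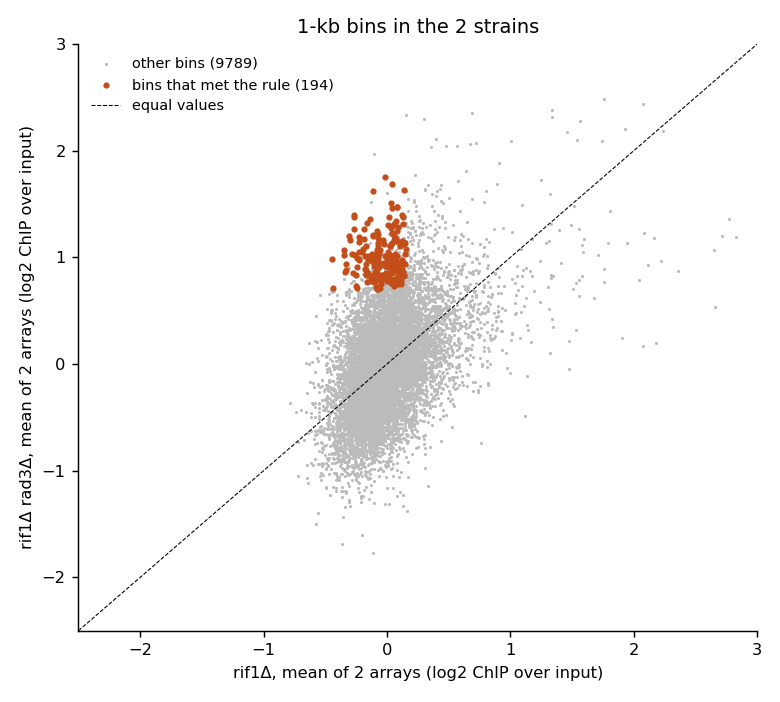
Mean log2 ChIP over input of each 1-kb bin in rif1Δ (x axis) and in rif1Δ rad3Δ (y axis), each over 2 arrays, with the 194 chosen bins in orange, the other 9789 in grey and a dashed line of equal values. The chosen bins stand above the dense part of the cloud with rif1Δ means near 0, and 9 bins lie outside the axes.

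Most of the difference came from the ChIP channel. The ChIP channel, as log2 signal over its array median, was higher in rif1Δ rad3Δ by a median of 1.10 (0.47 to 2.16) in the chosen bins. The input channel differed by a median of 0.089 (-0.95 to 0.66), against 0.03 over all bins. Both rif1Δ rad3Δ arrays lay above both rif1Δ arrays in the ChIP channel in 193 of the 194 bins, where 31.7% of all bins did so. In the input channel they lay below both rif1Δ arrays in 9 bins (4.64%), against 11.4% of all bins, and above both in 57 (29.4%), against 19.4%. The ChIP channel is part of the ratio that chose the bins, and so these values describe the choice and support nothing further.

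The chosen bins held 693 probes, and in 664 of them (95.8%) both rif1Δ rad3Δ arrays read higher than both rif1Δ arrays, as 25.2% of all probes in reach of the rule did. Every probe of the bin did so in 168 of the 194 bins (86.6%), and in 9.19% of all bins. The probes make up the bin means that the rule used, so these shares describe the choice and support nothing further. In 169 bins (87.1%) every probe was well above background in both channels of all arrays, the same share as over all bins, and no chosen bin held a saturated probe. As a background over the whole series, limma's test between the strains, with Benjamini-Hochberg adjustment over 12050 bins, called 1237 bins higher in rif1Δ rad3Δ, or 10.3%. All 194 were among them, which the rule made likely, and nothing is read from that count.

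The limits cut through a continuum. Just inside the limit of 0.7 were ost5–rpc53 (chromosome III, 1968000 to 1968999), with a lower rif1Δ rad3Δ array of 0.70, vps60 (0.70) and SPBC32H8.15 (0.70). Just outside it were SPBC1773.03C–SPBC1773.04 (0.699), are1–met16 (0.698) and SPBC21B10.08C (0.696). At the limit of 0.2, the last bins kept were cdc15, with a higher rif1Δ array of 0.199, eme1–glt1 (0.196) and sce3–SPBC18H10.05 (0.192), and the first left out were sme1 (0.203), mus7–bit2 (0.204) and cox7–rep2 (0.205). Of the 194 bins, 62 lay within 0.05 of a limit and 115 within 0.1. A further 104 bins missed by less than 0.05 and 244 by less than 0.1. The number of bins kept was 84 when the arrays were scaled to one spread and 97 with normexp background correction. The SD over bins of the strain mean was 0.475 to 0.502 on the 3 chromosomes in rif1Δ rad3Δ and 0.274 to 0.311 in rif1Δ, a gap in spread that the scaling takes out.

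Joined over gaps of at most 1 bin, the 194 bins formed 156 regions. Of these, 125 held 1 chosen bin, 25 held 2, 5 held 3 and 1 held 4. Measured as the run of bins around the leading bin with both rif1Δ rad3Δ arrays at 0.35 or more, a region was 3 kb wide in the median with a range of 1 to 8 kb, with 26 regions of 1 kb and 30 of 5 kb or more. The leading bin of a region is the one with the widest gap, taken from the lower rif1Δ rad3Δ array to the higher rif1Δ array. Chromosome I held 59 bins (1.63% of its bins in reach), chromosome II 85 (1.95%) and chromosome III 50 (2.5%). Leading bins followed each other at median distances of 54 kb, 48 kb and 40.5 kb on the 3 chromosomes.

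Regions with most of their intergenic bases between divergent genes are given first, in the order of their gap. The widest separation lay in the 4040 bp between ssp2, the catalytic subunit of the energy-sensing kinase AMPK, and SPCC74.04, annotated as a gamma-aminobutyric acid and polyamine transporter gene (chromosome III, 1935000 to 1935999). It read -0.07 and -0.16 on the rif1Δ arrays and 1.75 and 1.49 on the rif1Δ rad3Δ arrays, a difference of 1.73, or 3.32-fold. The region held 3 chosen bins, and both rif1Δ rad3Δ arrays stayed at 0.35 or more over 6 kb. The highest probe of its leading bin, by the mean of the 2 rif1Δ rad3Δ arrays, reached 2.12 and 1.70, with 0.37 and 0.12 in rif1Δ, so that single probes in a chosen bin could exceed the limit set for its mean. Next came the 3101 bp between SPBC18H10.18C, of unknown function, and vps38, a subunit of a phosphatidylinositol 3-kinase complex (chromosome II, 1804000 to 1804999), with -0.04 and 0.01 in rif1Δ and 2.03 and 1.47 in rif1Δ rad3Δ. Its difference of 1.77 was the largest of the leading bins of the 25 regions named here, and its 2 rif1Δ rad3Δ arrays were 0.56 apart. The divergent region of tco89 and the uridine kinase gene urk1 (chromosome III, 1555000 to 1555999) read 0.09 and -0.03 in rif1Δ and 1.46 and 1.55 in rif1Δ rad3Δ.

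At SPCC794.06, annotated as a malic acid transporter gene (chromosome III, 259000 to 259999), the values were 0.03 and 0.05 in rif1Δ and 1.37 and 1.55 in rif1Δ rad3Δ. The Rab GTPase-activating protein gene gyp1 (chromosome II, 784000 to 784999) went from -0.09 and -0.53 to 1.16 and 1.25. Between wis1, the kinase that switches on the stress-activated MAP kinase, and the transporter gene SPBC409.08 (chromosome II, 1150000 to 1150999), the values went from -0.34 and -0.35 to 1.15 and 0.90. Neither rif1Δ array came near 0 at that site, which lies in a divergent region of 4610 bp. The zinc transporter gene zhf1 (chromosome I, 2158000 to 2158999) had -0.14 and -0.09 in rif1Δ and 1.14 and 1.26 in rif1Δ rad3Δ. The citrate synthase gene cit1 (chromosome I, 2327000 to 2327999) had 0.02 and 0.07 in rif1Δ, and 1.28 and 1.31 in rif1Δ rad3Δ. Across these 5 sites the rif1Δ rad3Δ arrays lay between 0.90 and 1.55 and the rif1Δ arrays between -0.53 and 0.074.

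The bin over are1, a sterol acyltransferase gene (chromosome I, 2305000 to 2305999), is mostly coding, with 655 coding bases. It read -0.28 and -0.29 in rif1Δ and 1.15 and 0.92 in rif1Δ rad3Δ. At rhn1, a transcription termination factor gene (chromosome II, 1035000 to 1035999), the values were -0.22 and -0.18, and 1.01 and 1.10. The bin at the start of wee1, the kinase gene that delays mitosis, lies in the longest divergent region among the leading bins, 6385 bp shared with bfr1 (chromosome III, 721000 to 721999). It read -0.59 and 0.06 in rif1Δ and 1.24 and 1.53 in rif1Δ rad3Δ, so that its rif1Δ arrays differed by more than its rif1Δ rad3Δ arrays. The bin between mug182 and coa2, an assembly factor gene of cytochrome c oxidase (chromosome I, 3687000 to 3687999), had 0.08 and -0.40, and 1.44 and 1.20. At ghs2, a glucosidase gene next to cul1 (chromosome I, 3610000 to 3610999), the values were 0.15 and -0.42 in rif1Δ and 1.26 and 1.46 in rif1Δ rad3Δ. With these, 13 of the 25 leading regions had most of their intergenic bases in a divergent region. Over all 156 regions 65 (41.7%) did so.

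Another 9 of the 25 had most of their intergenic bases in a tandem region, however few these bases were. Over all 156 regions 63 (40.4%) did so. The bin over the tRNA pseudouridine synthase gene pus3 and SPCC16C4.21 (chromosome III, 671000 to 671999) read 0.12 and 0.16 in rif1Δ and 1.70 and 1.57 in rif1Δ rad3Δ, the third widest gap. The bin over the respiratory assembly gene cox20 (chromosome II, 3252000 to 3252999), with 2 probes and only 8 intergenic bases, had 0.07 and 0.09, and 1.58 and 1.37. Over psl1, a cyclin gene, and nep1, a NEDD8 protease gene (chromosome II, 3304000 to 3304999), the values were -0.36 and -0.17, and 1.10 and 1.69. Of these 3, only psl1–nep1 had rif1Δ values under 0, and its rif1Δ rad3Δ arrays were 0.59 apart.

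The bin between mre11, the nuclease gene of the complex that trims broken ends, and fep1, the iron-sensing repressor gene (chromosome I, 440000 to 440999), was the most A+T-rich of the 25 leading bins, at 73.0%. It had -0.02 and 0.06 in rif1Δ and 1.46 and 1.29 in rif1Δ rad3Δ. The other leading bin with an A+T-rich island lay between the sugar nucleotide transporter gene yea4 and mas5, a DnaJ chaperone gene (chromosome II, 1080000 to 1080999), with -0.004 and 0.08, and 1.32 and 1.23. The bin between SPCC1739.08C and cox13, a cytochrome c oxidase subunit gene (chromosome III, 2045000 to 2045999), read -0.10 and 0.11, and 1.30 and 1.31, though on some arrays not all of its probes cleared the background. Between oca2, a kinase gene, and gnr1, a G protein subunit gene (chromosome III, 764000 to 764999), the values were -0.56 and 0.03, and 1.20 and 1.33. At mvp1, sei1 and kms1 (chromosome I, 3462000 to 3462999), the first a sorting nexin gene and the second the seipin gene, they were -0.23 and -0.16, and 1.01 and 1.14. The bin over SPBC530.07C (chromosome II, 804000 to 804999), with 139 intergenic and 635 coding bases, had 0.19 and -0.05, and 1.33 and 1.35.

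The remaining 3 of the 25 had no intergenic base, as did 26 (16.7%) of all 156 regions. The protein phosphatase regulator gene nem2 (chromosome II, 488000 to 488999) had -0.40 and -0.20 in rif1Δ and 1.03 and 1.30 in rif1Δ rad3Δ. The acyltransferase gene gup1 (chromosome I, 490000 to 490999) had -0.26 and -0.22, and 0.999 and 0.98. The flocculin gene gsf2 (chromosome III, 965000 to 965999), whose bin lies in the gene outside its coding sequence, had -0.06 and -0.16, and 1.35 and 1.08. In all 3, as in the other 22, the 4 arrays kept the order that the rule requires, with gaps of 1.11 to 1.55 from one strain to the other.

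**Figure D2:**
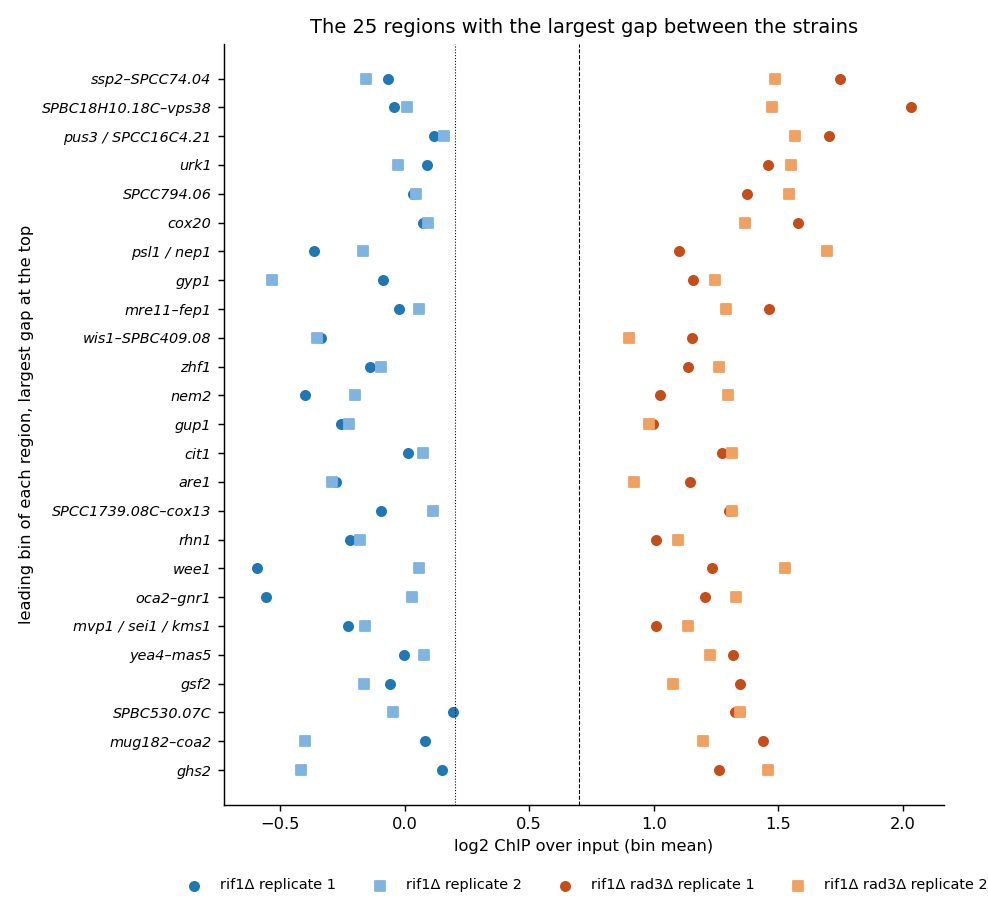
Log2 ChIP over input (x axis) of the leading bin of the 25 regions with the widest gap, 1 row per region, with a point for each of the 2 rif1Δ arrays (blue) and 2 rif1Δ rad3Δ arrays (orange). The dotted and dashed lines are the limits of 0.2 and 0.7, and the rif1Δ rad3Δ points lie between 0.90 and 2.03.

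The widest region by number of chosen bins was that of ghs2, with 4 from 3609000 to 3612999 on chromosome I. The ssp2–SPCC74.04 region had 3, and so did 4 others. Between eme1, which with Mus81 forms a nuclease that cuts branched DNA, and glt1, a glutamate synthase gene (chromosome I, leading bin 3301000 to 3301999), the values were 0.12 and 0.14 in rif1Δ and 1.51 and 1.25 in rif1Δ rad3Δ. Over sus1 and nbs1, a partner of the Mre11 nuclease (chromosome II, 2648000 to 2648999), they were 0.16 and 0.09, and 1.53 and 1.26. Over ngg1, a subunit gene of the SAGA coactivator (chromosome II, 1587000 to 1587999), they were -0.17 and -0.32, and 0.95 and 0.87. Over SPCC24B10.03 and mrpl50, a mitochondrial ribosomal protein gene (chromosome III, 907000 to 907999), they were -0.17 and -0.51, and 0.83 and 0.90. These last 2 regions were wide but modest in height.

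**Figure D3:**
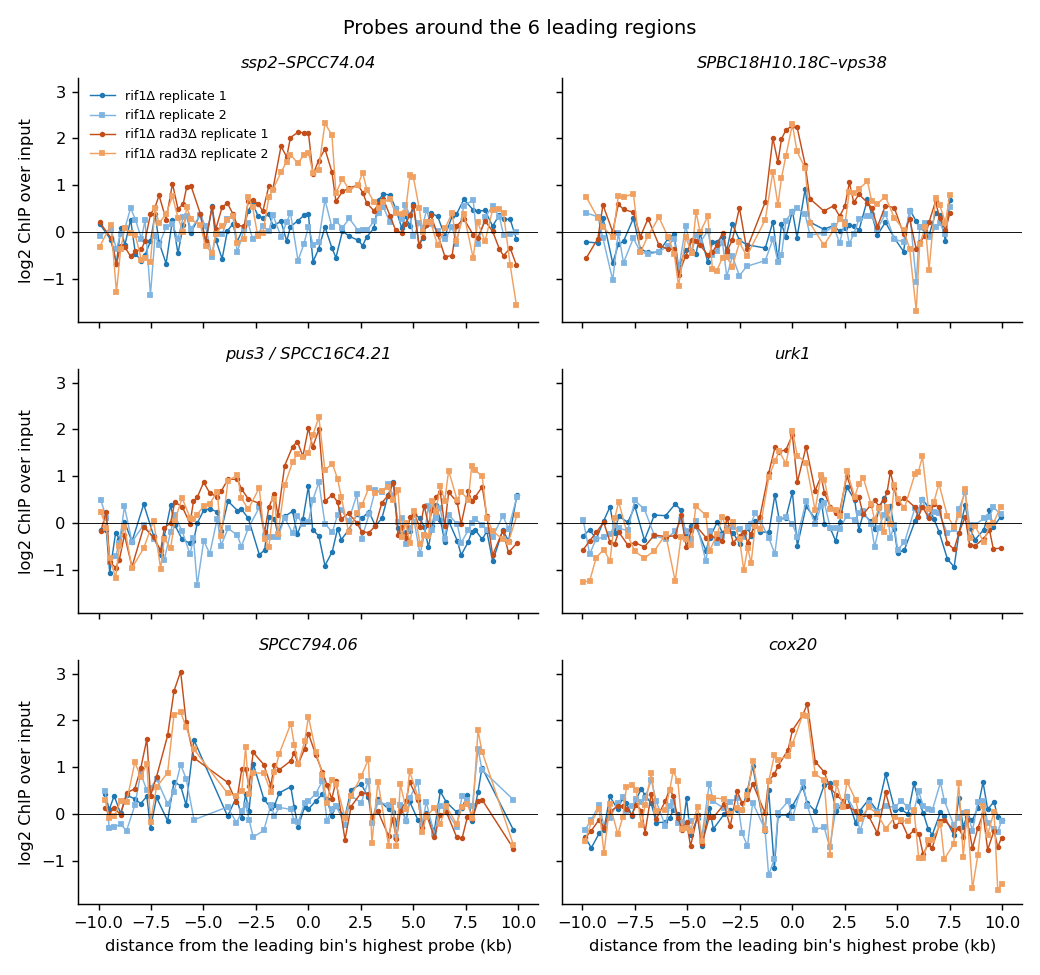
Log2 ChIP over input of single probes (y axis) by distance in kb from the probe of the leading bin with the highest rif1Δ rad3Δ mean (x axis) at the 6 regions with the widest gap, with a line for each array. The rif1Δ rad3Δ arrays rise together over several neighbouring probes around 0, where the rif1Δ arrays scatter around their median. At SPCC794.06 a second and taller rise stands about 6 kb to the left. A probe there read 3.04 and 2.17 in rif1Δ rad3Δ, and the rif1Δ arrays were raised too, at 0.60 and 1.06.

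Around the leading bins of the 156 regions the signal of rif1Δ rad3Δ fell off within a few kb. The means of the 2 arrays were 1.01 and 0.99 in the leading bin, 0.68 and 0.54 at 1 kb to the left, and 0.61 and 0.64 at 1 kb to the right, where right is the direction of rising coordinates. At 5 kb they were -0.14 and -0.12 on the left and 0.067 and 0.078 on the right. The rif1Δ means stayed between -0.051 and 0.066 at every distance up to 15 kb. The sides were unlike. Over the bins 2 to 4 kb away, the median of the regions in rif1Δ rad3Δ was 0.019 on the left and 0.23 on the right, and the right side was higher in 106 of 155 regions (68.4%). In rif1Δ the corresponding medians were -0.047 and 0.039, with the right side higher in 97 regions (62.6%). In rif1Δ rad3Δ the right side was higher in 67.3% of regions on chromosome I, 72.3% on chromosome II and 63.4% on chromosome III. In rif1Δ these shares were 69.4%, 63.1% and 53.7%. The same share was not taken around other bins, so the lean is not read as particular to these regions. What lies behind the unlike sides was not tested.

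**Figure D4:**
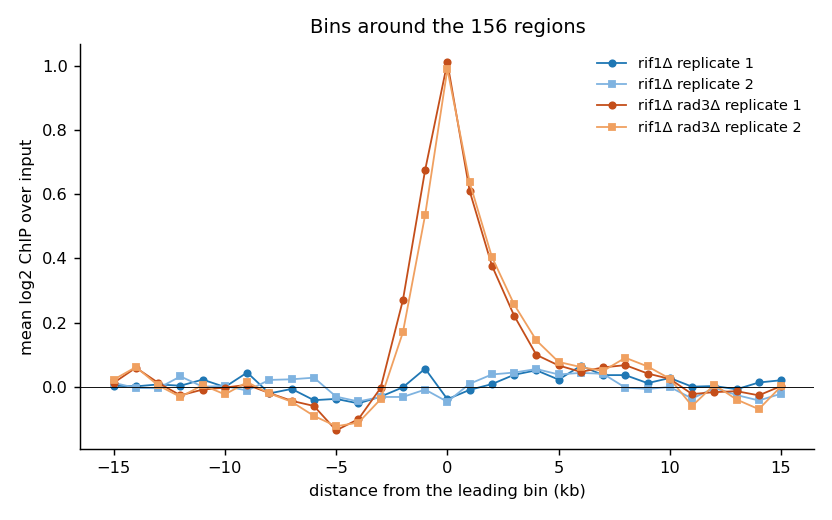
Mean log2 ChIP over input (y axis) of the bins at each distance from the leading bin in kb (x axis), over up to 156 regions, for each of the 4 arrays. The rif1Δ rad3Δ arrays peak at 1.01 and 0.99 and fall more slowly to the right than to the left, and the rif1Δ arrays stay near 0.

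The bins bordering the chosen ones, 317 that did not themselves qualify, had medians of 0.55 and 0.52 on the rif1Δ rad3Δ arrays and of 0.021 and -0.001 on the rif1Δ arrays. Both rif1Δ rad3Δ arrays lay above both rif1Δ arrays in 265 of them (83.6%), as in 30.4% of all bins. Neighbouring bins share sheared DNA fragments, so they are not independent of the choice. Peaks of rif1Δ were seldom close by. Bins at 0.7 or more on both rif1Δ arrays numbered 147, and 1 chosen bin (0.515%) lay within 2 kb of one of these, against 3.71% of all bins. The limit of 0.2 itself works against such a neighbour.

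Position relative to genes was not used by the rule. A divergent intergenic region, from which genes on both sides are read outward, was touched by 84 of the 194 bins (43.3%), and by 20.3% of all bins. A tandem one was touched by 79 (40.7%), against 27% of all bins, and a convergent one, between the ends of 2 genes, by 4 (2.06%), against 5.77%. Only 30 bins (15.5%) had no intergenic base, where 48% of all bins had none, and 6 (3.09%) were coding from end to end, against 19.8%. The median bin held 159 coding and 443 intergenic bases, and the median of all bins 619 and 22. These are counts over neighbouring and partly joined bins, given without a test.

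The share of bins that were chosen rose with the length of the intergenic region touched. It was 0.626% of bins that touched none, 1.35% where the longest was under 500 bp, 3.09% from 500 bp to under 1000 bp and 5.33% from 1000 bp to under 2000 bp, with 5.49% and 4.6% beyond 2000 and 3000 bp. At a length of 1000 bp or more, 5.78% of bins at divergent regions and 5.01% of bins at tandem regions alone were chosen, shares that lay close to each other. Under 1000 bp these shares were 2.19% and 2.21%. Of the bins at the longer regions 1108 were divergent and 719 tandem, and of those at the shorter ones 914 and 1901.

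Base content went the same way. The median A+T content was 66.8% in the chosen bins and 64% in all bins. The chosen share was 0.402% of bins under 60% A+T and 7.28% of bins at 70% or more. Over all bins in reach, the median of the rif1Δ rad3Δ mean went from -0.15 under 60% A+T to 0.50 at 70% or more, while that of the rif1Δ mean was 0.060 and 0.011 in the same classes. Where a bin touched an intergenic region, 5.81% were chosen at 68% A+T or more and 2.31% below it. Among bins without intergenic bases the shares were 0.98%, from 1 bin of 102, and 0.618%. Runs of 8 or more A or T of one letter were found in 67.5% of the chosen bins and in 40.3% of all bins, and the longest stretch of A and T alone had a median of 18 bp and 14 bp. In the other 365 bins at 0.7 or more on both rif1Δ rad3Δ arrays these values were 72.9% and 18 bp. Neither was thus particular to the chosen bins.

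A+T-rich islands, taken as stretches of 500 bp with 75% A+T or more, overlapped 32 of the 194 bins (16.5%), and 5.27% of all bins. With a limit of 72% the shares were 54.6% and 23.5%. With 75% over 300 bp they were 36.1% and 13.1%. The islands with the widest gap after mre11–fep1 and yea4–mas5 were those at nop58, a snoRNP protein gene (chromosome I, 876000 to 876999), with -0.11 and -0.05 in rif1Δ and 0.96 and 1.13 in rif1Δ rad3Δ, and in a further bin at ngg1 (chromosome II, 1588000 to 1588999), with -0.19 and -0.51, and 1.37 and 0.77. With the A+T trend of each array removed, 146 bins met the limits, with a median A+T content of 63.8%, an island in 6.16% and a divergent region in 33.6%. That setting takes out signal that follows A+T content whatever its source.

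Among the chosen bins, the height varied little with the kind of site. The limits of 0.7 and 0.2 hold in every kind and draw these values together, so nothing is read from their likeness. The median difference between the strains was 1.06 for the 84 bins that touched a divergent region, 0.98 for the 79 at tandem regions, 0.98 for the 30 without intergenic bases and 0.97 for the 32 with an island. It was 0.996 in the 74 bins at 68% A+T or more and 0.94 in the 20 under 62%. By chromosome it was 0.98, 1.04 and 0.97 on I, II and III. Within each of these kinds and chromosomes the difference ran from 0.728 or less to 1.45 or more, a spread far wider than any step between their medians.

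Most other features were rare or close to their background. Introns were touched by 54 bins (27.8%, against 28.2% of all bins), led by those at pus3, cox20, psl1 and gup1 given above. Non-coding RNA genes, which most bins touch, were touched by 173 (89.2%, against 76.6%), a share above their background. Genes longer than 5 kb were touched by 10 (5.15%, against 7.79%). After gsf2, the leading bins among these were at glt1 (chromosome I, 3302000 to 3302999), with -0.27 and 0.10 in rif1Δ and 1.09 and 1.05 in rif1Δ rad3Δ, at cut4, a subunit gene of the anaphase-promoting complex (chromosome II, 391000 to 391999), with -0.10 and -0.18, and 0.84 and 1.11, and at rtt106–spo7 (chromosome I, 3247000 to 3247999), with -0.11 and -0.20, and 0.96 and 0.74.

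A tRNA gene was touched by 1 bin, at ceo2 (chromosome I, 1421000 to 1421999), with -0.01 and 0.06 in rif1Δ and 1.25 and 0.80 in rif1Δ rad3Δ, which is 0.515% against 1.18% of all bins. Genes of 5S rRNA, snRNA and snoRNA, wtf genes and pseudogenes were touched by 0 of the 194, where 36, 63, 22 and 38 of all bins touched them. Long terminal repeats or Tf2 elements were touched by 3 (1.55%, against 1.85%), at SPBC337.02C–rhn1 (chromosome II, 1034000 to 1034999; -0.001 and -0.24, and 1.04 and 1.03), at ent1 (chromosome III, 1574000 to 1574999; 0.14 and 0.03, and 1.30 and 1.002) and at mpe1 (chromosome II, 3659000 to 3659999; -0.04 and -0.11, and 0.80 and 0.86). Probes in repeats can bind DNA from several copies, so these 3 places are less certain.

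Within 50 kb of a centromere lay 9 bins (4.64%, against 2.24% of all bins). The centromere was taken as the longest gap between protein-coding genes away from the chromosome ends, and bins inside it counted too. On chromosome I that gap lay beyond the rule's reach. Some of the 9 bins were neighbours, as the region at ngg1 held 3 chosen bins and that at isp4–rpl26 held 2. Beside the 2 bins at ngg1, those with the widest gap were at rpa12, an RNA polymerase I subunit gene (chromosome III, 1040000 to 1040999), with 0.09 and 0.02, and 1.08 and 1.25, and at isp4–rpl26 (chromosome II, 1555000 to 1555999), with 0.02 and -0.17, and 0.96 and 1.41. Within 100 kb of a chromosome end lay 1, at SPCC757.13 (chromosome III, 78000 to 78999), with -0.18 and -0.16, and 0.81 and 0.96. The ends within the rule's reach make up 2.43% of all bins.

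The 4 bins that touched a convergent region were at SPBC27B12.12C (chromosome II, 1350000 to 1350999; 0.17 and 0.08 in rif1Δ, 0.997 and 1.32 in rif1Δ rad3Δ), SPCC417.03, cho1–esf1 and SPBC32H8.15, and on the last 3 every rif1Δ rad3Δ array was at 0.70 to 0.83. Of the 6 bins that were coding throughout, those with the widest gap after ngg1 and cut4 were at pho843 (chromosome III, 829000 to 829999; -0.10 and -0.11, and 0.79 and 0.88) and at sec39 (chromosome I, 2618000 to 2618999; -0.05 and -0.29, and 0.83 and 0.86). Of the 30 without intergenic bases, a second bin at are1 (chromosome I, 2306000 to 2306999; -0.32 and -0.05, and 1.21 and 1.13) stood with nem2, gup1 and gsf2.

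The bins can be set beside the other 365 that reached 0.7 on both rif1Δ rad3Δ arrays but stood above 0.2 on a rif1Δ array. Of those, 34% touched a divergent region (43.3% of the chosen bins), 17.5% an A+T-rich island (16.5%), 5.48% a tRNA gene (0.515%) and 2.47% a 5S rRNA gene (0%). Coding throughout were 5.21% of them, against 3.09%. Their median A+T content was 66.6% (66.8% in the chosen bins), and their median bin held 447 intergenic bases (443). Both sets were thus richer in intergenic DNA and islands than all bins, and the sets were separated by a limit on the same arrays, so no test of the difference was made.

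**Figure D5:**
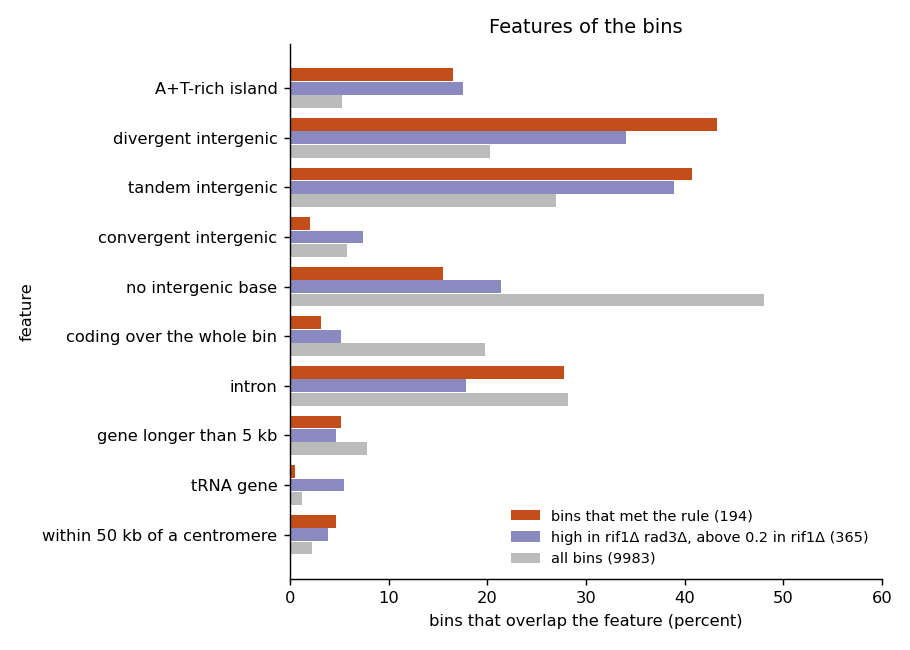
Percent of bins (x axis) that overlap each annotated feature (y axis), for the 194 chosen bins, the 365 bins that were high in rif1Δ rad3Δ but above 0.2 on a rif1Δ array, and all 9983 bins in reach of the rule. Divergent and tandem intergenic regions and A+T-rich islands take larger shares of both high sets than of all bins, and whole-coding bins smaller ones.

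Genes of the replication and repair machinery were examined by lists of their roles, counting a gene where a chosen bin touched it or the 500 bp before its start. Over all protein-coding genes on bins in reach, 238 of 4191 (5.68%) were touched. None of 29 replication origin and fork genes was (0%). Of 13 checkpoint genes 2 were, wee1 and the cyclin-dependent kinase gene cdc2. The bin counted for cdc2 (chromosome II, 1499000 to 1499999) lies over its neighbour wwm1 and touches only the 500 bp before cdc2. It read 0.10 and 0.15 in rif1Δ and 0.86 and 0.84 in rif1Δ rad3Δ. Of 17 recombination genes 2 were, eme1, in its bin at 3300000 to 3300999 with -0.01 and 0.20, and 0.91 and 0.73, and nbs1, in 2 bins. Of 10 Rif1 and telomere genes 1 was, sds21 (chromosome III, 631000 to 631999), which encodes a catalytic subunit of protein phosphatase 1, at -0.07 and -0.12, and 0.86 and 0.71. Each list holds few genes, and no test was made of these shares.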

How the data were processed

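Rad52 ChIP DNA and its input were hybridised to 4 two-colour Agilent tiling arrays, scanned and quantified, per the submitters' processing notes, in Agilent Feature Extraction 10.7.3.1. From the deposited intensity values, the processed signals of both channels were taken, background-subtracted and dye-normalized per the file headers, with deposited median spot and background intensities for an alternative. The deposited log10 ratio, per the file headers Cy5 over Cy3, served to check the sign. The ratio in the authors' value table is linear and lay within 1% of ChIP over input for all 42641 nuclear probes of every array, uncentred, with column medians of 0.985, 1.01, 0.968 and 1.01. The labels' extraction text speaks of RNA, though the labelled fractions are ChIP and input.

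Log2 ChIP over input of each probe was centred on each array's median and averaged over 1-kb bins with 2 or more probes, control spots left out. Array coordinates name a Feb2002 build. Probe brightness followed the G+C content of assembly ASM294v3 within 50 bp of an offset of 0 in all 42 blocks of 250 kb in reach of the rule, so its annotation and sequence were used there. The number of arrays limits the precision.

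Strains were compared over all bins with limma 3.58.1 (lmFit and eBayes, R 4.3.3, adjusted p under 0.05), tested on simulated data, as a background count only. The window sequence of 1 leading region is not reported here. Sequence features were computed in Python 3.11.15. The members and lists were chosen with earlier results of these data known. Named regions are the 25 with the widest gap and the 5 with most bins, plus up to 4 bins per feature class and the 3 bins nearest each side of a limit. A sixth region, also with 3 bins, tied with these and is given too. Alternatives covered background correction, loess, centring, scaling, the A+T trend, probe filters, binning, the limits, the value table, the replicate block and single arrays left out.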

Additional observations from a re-analysis of the deposited data

How the results depend on the processing

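The number of bins that met the rule was 194 as reported, and 97 with normexp, 84 with arrays scaled to one spread, 79 with limits of 0.8 and 0.1, and 438 with limits of 0.6 and 0.3. Without 1 array it ranged from 276 to 350, since a limit on 1 array fewer lets more bins in. The count of bins higher in rif1Δ rad3Δ over all bins was 1237 in limma, and 691 with normexp, 300 with arrays scaled to one spread and 691 with the A+T trend removed, which covered fewer bins. With the strain and a replicate block, a paired fit, it was 2252. Same-numbered arrays deviated together over bins at r = 0.328, but 2 pairs are too few to show a pairing by number. The replicate 1 arrays also share a slide, and the replicate 2 arrays do not. Without 1 array this count ranged from 621 to 868. The cause of these changes was not tested unless named. The difference between strains stayed above 0 at all 25 leading bins in all 372 values recomputed under the alternatives, from 0.834 to 2.05, and its median over the 194 bins from 0.838 to 1.02. These bins were picked for their wide gap on the same arrays. Leaving out an array could therefore not reverse them, and the constant sign is no independent support. The series value table gave the counts as reported. The median A+T content ranged from 63.8% to 67.4%, with its lowest value after the A+T trend was removed. Values of single bins rest on 2 to 5 probes and 2 arrays a strain.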
